A study of Mus musculus with 9 samples.

Results

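Genes of major histocompatibility complex (MHC) class I and class II antigen presentation were followed across 3 mouse myeloid cell lines. They were picked by name, and all 10 were found among the 54347 genes of the count table. The 7 class II genes were the chain genes *H2-Aa*, *H2-Ab1* and *H2-Eb1*, the peptide exchange genes *H2-DMa* and *H2-DMb1*, the invariant chain gene *Cd74* and the transactivator gene *Ciita*. The 3 class I genes were the heavy chain genes *H2-K1* and *H2-D1* and the light chain gene *B2m*. A filter on low counts left 7 of the 10 for testing, and *H2-Aa*, *H2-Eb1* and *Cd74* did not pass it.

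Poly-A RNA was sequenced from stranded libraries, 3 for each line. Hox-WT was a progenitor line of wild-type genotype, and Hox-URE a progenitor line of genotype UREd/d, in which a far upstream enhancer (URE) of *Spi1* is deleted. *Spi1* encodes PU.1, a transcription factor of blood cells. URE-AML, labelled B22, was a line of AML blast-like cells that also carried UREd/d. The Hox lines had been immortalized from c-Kit+ bone marrow progenitors with a Hoxb8 protein fused to the estrogen receptor, and URE-AML was grown out of leukemic blasts of 1 mouse. All 3 lines were kept in medium with 20% FCS, 1 µM estradiol and 10 ng/ml of IL-3, IL-6 and SCF per the labels, and no interferon or other stimulus is named. The study's methods give another estradiol concentration. The URE-deleted mice and their littermates were on a C57BL/6 background per the study's methods. The study credits Hox-WT to an earlier publication and the UREd/d lines to in-house work, so that background is not clearly stated for Hox-WT. The labels give no strain or MHC haplotype for any line. Each genotype and stage was thus 1 line, so the differences below are differences between lines. The labels do not say that the 3 libraries of a line were separate cultures, and p-values measure the spread between these libraries, which may be technical.

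Class I molecules pair a heavy chain with beta-2 microglobulin and show peptides from inside the cell on the surface of most nucleated cells. Class II molecules pair an alpha and a beta chain, are escorted by the invariant chain and loaded with the help of DM, and are typical of dendritic cells, B cells and activated macrophages. CIITA is the master coactivator of class II promoters, NLRC5 is its counterpart at class I promoters, and both act through factors bound at X and Y boxes, while NF-kappa B and interferon regulatory factors act on further elements of class I promoters.

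Library totals ran from 20331064 to 28588718 counts. A minimum of 3 counts per library, used below as the floor of detection, equals between 0.104 and 0.153 CPM (counts relative to the scaled total of the library) and allows for counting error alone. *Spi1* had between 2791 and 2932 counts in Hox-WT, at most 1 in Hox-URE and from 62 up to 148 in URE-AML, so both UREd/d lines lay below every Hox-WT library. Dendritic cell markers and a B cell marker are given here. Macrophage and monocyte markers, whose sums were higher in every line, are given further below. The dendritic cell genes *Clec9a*, *Siglech*, *Ccr7* and *Cd209a* and the B cell gene *Ms4a1* were at 0 counts in all 9 libraries. The 9 dendritic cell markers summed to between 92.9 and 126 CPM in Hox-WT. The same sum was between 11.2 and 17.4 CPM in Hox-URE and between 0.129 and 0.444 CPM in URE-AML, and in both Hox lines they were mostly *Flt3*, which progenitors also express.

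Promoters are shown for 5 genes, because they lay out which promoter letters class I and class II genes share and where they differ. Of the 10 members, 7 had an entry in the RefSeq promoter table for GRCm38.p6, and *H2-Ab1*, *Ciita* and *Cd74* had none. The windows of *H2-D1* and *H2-DMb1* and a second one of *H2-K1* run into exons of the gene itself and are not shown. *H2-DMa* has 2 windows, which are not shown either. The one at chr17:34122582-34122831 held no match, and the one at chr17:34125268-34125517 held a reversed CCAAT 198 to 194 bases and GAANNGAA 186 to 179 bases before the start. The window shown for *H2-Eb1* runs over an exon of *Gm20513*, a gene on the other strand. *H2-Q7*, a nonclassical class I gene, is added because it appears below. Each run covers up to 250 bases before the transcription start, read 5′ to 3′ on the gene's own strand. Capitals mark matches, on either strand, to CCAAT (the core of the Y box), TGACG (the core of the X2 box), GGGATTCCC (a kappa B site) or a pair of GAA triplets 2 or 3 bases apart (GAANNGAA or GAANNNGAA, as in interferon-responsive elements), and adjoining or overlapping matches run together.
B2m, chr2:122147437-122147685, plus strand: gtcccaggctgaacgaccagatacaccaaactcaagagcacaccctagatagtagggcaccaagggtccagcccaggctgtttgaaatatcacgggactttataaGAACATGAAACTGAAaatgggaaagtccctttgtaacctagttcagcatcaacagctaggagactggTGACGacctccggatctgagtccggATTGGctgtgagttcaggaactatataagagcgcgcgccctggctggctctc
H2-K1, chr17:34000348-34000597, minus strand: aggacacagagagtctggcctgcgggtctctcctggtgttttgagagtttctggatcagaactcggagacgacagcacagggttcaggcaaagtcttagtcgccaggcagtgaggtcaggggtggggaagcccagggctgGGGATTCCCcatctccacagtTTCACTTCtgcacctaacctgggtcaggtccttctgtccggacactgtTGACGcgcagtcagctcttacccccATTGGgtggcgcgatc
H2-Q7, chr17:35438905-35439154, plus strand: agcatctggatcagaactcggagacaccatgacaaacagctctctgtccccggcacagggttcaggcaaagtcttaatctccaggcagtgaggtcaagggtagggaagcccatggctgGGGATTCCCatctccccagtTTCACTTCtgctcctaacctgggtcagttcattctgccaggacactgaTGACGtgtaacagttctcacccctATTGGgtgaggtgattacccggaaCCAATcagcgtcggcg
H2-Aa, chr17:34287824-34288073, minus strand: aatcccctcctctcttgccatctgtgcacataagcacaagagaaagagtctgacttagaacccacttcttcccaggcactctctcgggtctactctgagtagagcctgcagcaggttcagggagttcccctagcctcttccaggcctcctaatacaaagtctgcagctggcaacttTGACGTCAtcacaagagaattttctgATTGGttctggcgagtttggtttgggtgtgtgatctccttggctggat
H2-Eb1, chr17:34305617-34305866, plus strand: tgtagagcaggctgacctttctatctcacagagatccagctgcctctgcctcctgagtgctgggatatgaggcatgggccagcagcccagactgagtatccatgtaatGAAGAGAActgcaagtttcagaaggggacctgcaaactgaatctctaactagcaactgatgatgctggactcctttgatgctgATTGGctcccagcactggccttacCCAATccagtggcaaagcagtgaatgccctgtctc

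The promoters of *B2m*, *H2-K1* and *H2-Q7* each held a TGACG upstream of a CCAAT read on the reverse strand, and a pair of GAA triplets further upstream. In *B2m* the TGACG lay 78 to 74 bases and the reversed CCAAT 53 to 49 bases before the start. *H2-K1* had them 41 to 37 and 16 to 12 bases before the start, and *H2-Q7* 64 to 60 and 40 to 36. *H2-Q7* also held a CCAAT at 16 to 12 bases, as did the window of *H2-D1*, not shown, at 53 to 49. GGGATTCCC was found 110 to 102 bases before the start of *H2-K1* and 132 to 124 bases before that of *H2-Q7*, and none was found in the window of *B2m*. Among the class II genes, *H2-Aa* held TGACG on both strands, overlapping at 74 to 67 bases before the start, and a reversed CCAAT at 48 to 44. *H2-Eb1* held a reversed CCAAT at 59 to 55 bases, a CCAAT at 35 to 31 bases and a pair of GAA triplets at 142 to 135 bases. Over all 32817 promoters of the table, 33.8% held CCAAT in such a window, 17.7% TGACG, 0.302% GGGATTCCC, 17.2% GAANNGAA and 18.1% GAANNNGAA, so only the kappa B letters were rare. A match here is a match of letters and says nothing of binding in these lines.

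The 3 lines were compared in pairs with the quasi-likelihood F test of edgeR fitted to all 13082 genes that passed the filter, with Benjamini-Hochberg adjustment. Calls required an adjusted p below 0.05 together with a change of more than 1.5-fold. In Hox-URE versus Hox-WT, 6 members were called higher and 1 lower. The share of called genes in the whole table was 37.2%, with 21.3% higher and 15.9% lower. In URE-AML versus Hox-WT, 1 member was called higher, 2 were called lower and 4 tested members were not called, beside 43.2% called in the whole table (23% higher, 20.2% lower). In URE-AML versus Hox-URE, 6 members were called lower and 1 was not called, beside 42.7% in the whole table (20.3% higher, 22.4% lower). No member was called higher there by edgeR, by DESeq2, or at an unadjusted p under 0.05 (0 of 7 tested in each case). Of the 7 tested members, 6, 3 and 6 had libraries that did not overlap between the lines in these comparisons, against 60.3%, 67.6% and 62.8% of all tested genes. *H2-Ab1* passed the filter only through Hox-URE and *Ciita* only through Hox-URE and URE-AML, so these 2 had to differ and the counts of members are descriptions. The comparisons share lines, so they are not independent of each other. The median log2 fold change of the tested members was 1.56, -0.39 and -1.95 in the 3 comparisons, beside 0.0 over all tested genes in each, and setting *H2-Ab1* at its lower bound in the last one leaves that median in place.

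**Figure D1:**
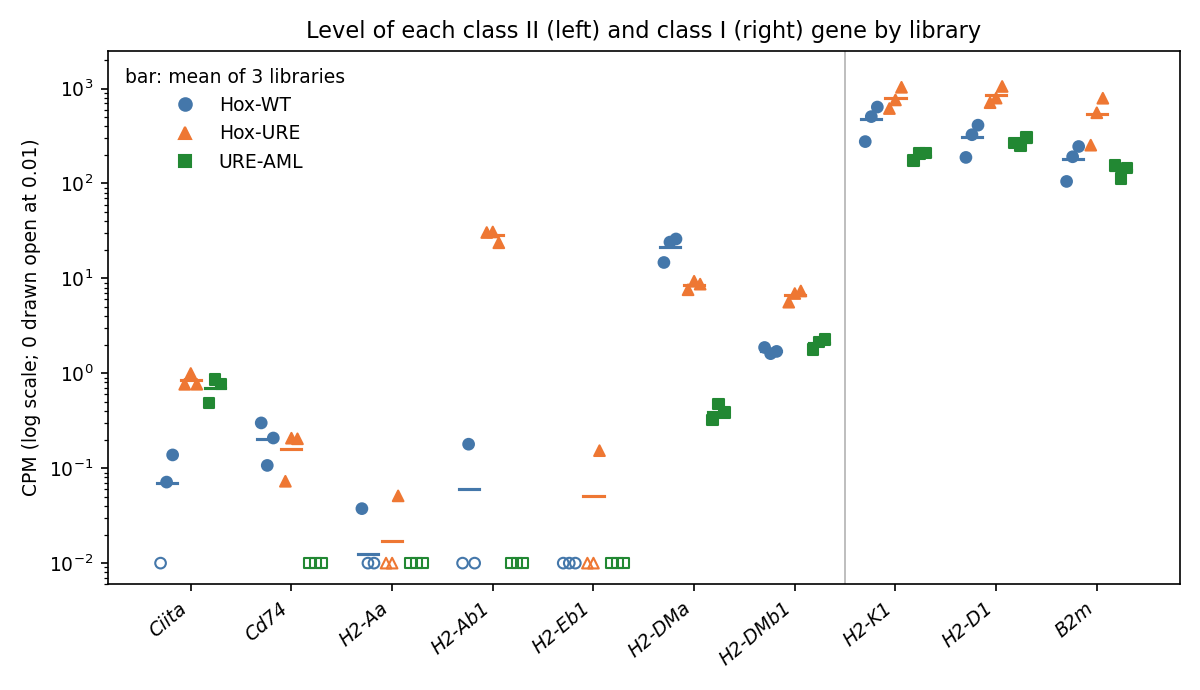
Level of each of the 10 genes in each library (CPM, log axis), with open symbols for 0 counts and bars for the mean of 3 libraries. The class I genes lie between 105 and 1051 CPM in all 9 libraries, *H2-Ab1* is at 23.7 to 30.8 CPM in Hox-URE alone, and *H2-Aa*, *H2-Eb1* and *Cd74* stay at or under 0.3 CPM.

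*Ciita* (ENSMUSG00000022504, chr16:10480059-10528418, plus strand, GRCm38), the switch for the class II program, was detected at low counts. It had 0, 2 and 4 counts in the Hox-WT libraries 1, 2 and 3. Hox-URE had 21, 24 and 15 counts, and URE-AML 12, 18 and 18. Both UREd/d lines thus lay above every Hox-WT library and overlapped each other. Mean levels were 0.0699 ± 0.0692 CPM (SD, n = 3) in Hox-WT, 0.842 ± 0.132 CPM in Hox-URE and 0.704 ± 0.195 CPM in URE-AML. Compared with Hox-WT, the log2 fold change was 3.47 ± 0.63 (SE) in Hox-URE (edgeR, adjusted p = 0.00107) and 3.21 ± 0.64 in URE-AML (edgeR, adjusted p = 0.00152), both resting on few counts in Hox-WT. Without Hox-WT library 3 they were 4.34 and 4.08, still called. URE-AML and Hox-URE differed by -0.26 ± 0.49 (edgeR, adjusted p = 0.674).

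*H2-Ab1* (ENSMUSG00000073421, chr17:34257689-34269419, plus strand), which encodes the beta chain of the I-A molecule, was high in 1 line. The Hox-URE libraries held 836, 743 and 464 counts, or 30.4, 30.8 and 23.7 CPM. In Hox-WT the libraries held 0, 5 and 0 counts, and in URE-AML each held 0. Every Hox-URE library thus stood far above all libraries of the other lines. The log2 fold change of Hox-URE versus Hox-WT was 8.77 ± 0.55 (edgeR, adjusted p = 4.97e-06), a value that leans on the 5 counts of Hox-WT library 2. Without that library, the other Hox-WT libraries are both at 0 and the fitted value, 12.44, is no measure of a fold. Against the floor of 3 counts per library, the level of *H2-Ab1* in URE-AML was at least 216-fold lower than that of Hox-URE (edgeR, adjusted p = 3.03e-06). URE-AML and Hox-WT were not called different (edgeR, adjusted p = 0.148), and no fold is given between lines that were nearly all at 0.

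The partner chain did not accompany it. *H2-Aa* (ENSMUSG00000036594, chr17:34282744-34287823, minus strand), which encodes the I-A alpha chain, had 1 count in Hox-WT library 1, 1 in Hox-URE library 3 and 0 in the other 7 libraries. *H2-Eb1* (ENSMUSG00000060586, chr17:34305867-34316674, plus strand), which encodes the I-E beta chain, had 3 counts in Hox-URE library 3 and 0 in the other 8. Both chains were therefore at or under the floor in every library of every line, also in the libraries with 464 to 836 counts of *H2-Ab1*. The I-E alpha chain gene *H2-Ea*, which mice of the C57BL/6 background do not express, had 0 counts in all 9 libraries. The annotation lists 8 transcripts of *H2-Ab1* in GENCODE M21, among them the non-coding H2-Ab1-207, which starts 5520 bases before the first coding transcript. Counts were given per gene, so which of the 8 transcripts gave the Hox-URE counts was not tested. Other genes' transcripts shared 0.267% of the 31-base words of the *H2-Ab1* transcripts.

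*Cd74* (ENSMUSG00000024610, chromosome 18), the invariant chain that escorts new class II dimers, was close to the floor as well. Hox-WT libraries held 8, 3 and 6 counts, Hox-URE libraries 2, 5 and 4, and URE-AML libraries 0 each. The highest of these was 0.3 CPM. Hox-URE, the line with *H2-Ab1*, thus overlapped Hox-WT, and each URE-AML library lay below all of theirs. The filter kept this gene out of the tests above. In the fit without a filter on low counts, it was called lower in URE-AML than Hox-WT (edgeR, adjusted p = 0.00724) and than Hox-URE (edgeR, adjusted p = 0.0143), and not called in Hox-URE versus Hox-WT (edgeR, adjusted p = 0.842). Against the floor of 3 counts per library, its mean level in URE-AML was at least 1.57-fold lower than that of Hox-WT and at least 1.23-fold lower than that of Hox-URE. *H2-Aa* and *H2-Eb1* were not called in any comparison of that fit (edgeR, adjusted p = 0.275 to 1). Over the 9 libraries, the non-member genes of at least 10 CPM whose log2 level followed *Cd74* most closely were *Ints10* (Pearson r = 0.976), *Dph7* (0.939) and *Zfp266* (0.937), a description of 8593 candidates in which the 3 URE-AML libraries at 0 weigh most.

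The genes of the DM heterodimer, which removes the invariant chain remnant and edits the peptides of class II, went opposite ways in Hox-URE. *H2-DMa* (ENSMUSG00000037649, chr17:34119541-34139101, plus strand) held 391, 676 and 752 counts in Hox-WT. It held 208, 225 and 170 in Hox-URE and 8, 10 and 9 in URE-AML. The 3 lines did not overlap, in the order Hox-WT, Hox-URE, URE-AML. Mean levels were 21.6 ± 6.09 CPM, 8.53 ± 0.885 CPM and 0.395 ± 0.0767 CPM (SD, n = 3 each). The log2 fold change was -1.34 ± 0.21 in Hox-URE versus Hox-WT (edgeR, adjusted p = 0.000473), -5.77 ± 0.29 in URE-AML versus Hox-WT (edgeR, adjusted p = 9.38e-08) and -4.43 ± 0.30 in URE-AML versus Hox-URE (edgeR, adjusted p = 7.82e-07). *Brd2* overlaps this gene on the other strand, and *CR974462.3* overlaps it on the same strand. The libraries were stranded, but whether the counts kept *Brd2* apart was not tested. None of the 31-base words of *H2-DMa* occurred in other genes' transcripts.

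*H2-DMb1* (ENSMUSG00000079547, chr17:34153072-34160230, plus strand), the beta partner, was highest in Hox-URE. Hox-WT held 50, 45 and 49 counts, Hox-URE 154, 167 and 144, and URE-AML 44, 45 and 53. Hox-WT and URE-AML overlapped, and each Hox-URE library lay above both. In the fit, log2 changes were 1.94 ± 0.22 in Hox-URE versus Hox-WT (edgeR, adjusted p = 4.77e-05), 0.26 ± 0.22 in URE-AML versus Hox-WT (edgeR, adjusted p = 0.347) and -1.68 ± 0.22 in URE-AML versus Hox-URE (edgeR, adjusted p = 9.29e-05). Per kilobase of the longest coding transcript, the mean level of *H2-DMa* against *H2-DMb1* was 10.8 against 1.23 CPM per kb in Hox-WT, 4.25 against 4.72 in Hox-URE and 0.197 against 1.47 in URE-AML. The alpha gene was thus the higher one in Hox-WT and the lower one in URE-AML. *H2-DMb1* shares 31.4% of its 31-base words with the neighbouring copy *H2-DMb2*, so its level is uncertain where the estimate splits reads between them. *H2-DMb2* itself held 9, 11 and 14 counts in Hox-WT, 1 in each Hox-URE library and 0, 0 and 1 in URE-AML, fewer counts than separate the lines in *H2-DMb1*.

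**Figure D2:**
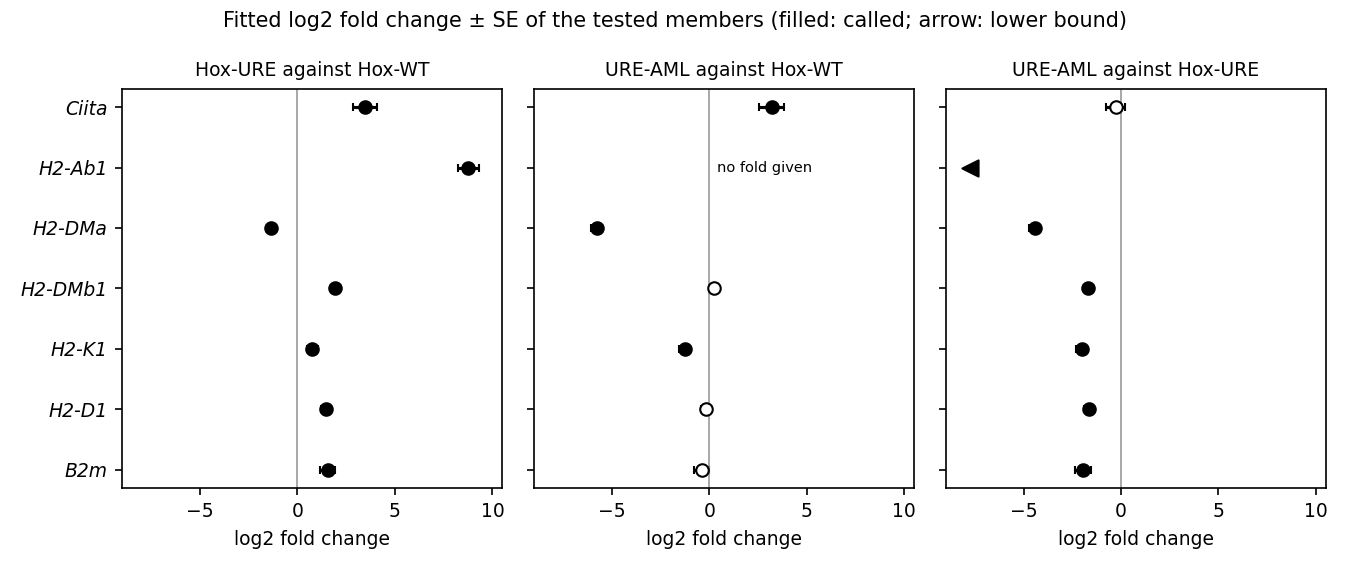
Fitted log2 fold change of the 7 tested members in the 3 comparisons (x axis), with SE as bars, filled points for called genes and an arrow for the lower bound of *H2-Ab1*. In URE-AML versus Hox-URE, 6 of the 7 are called lower, no fold is drawn for *H2-Ab1* in URE-AML versus Hox-WT, and *H2-DMa* is the member called lower in all 3 panels.

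Class I genes were expressed in all 3 lines, highest in Hox-URE on average. *H2-K1* (ENSMUSG00000061232, chr17:33996017-34000347, minus strand), the heavy chain of H2-K, stood at 276, 506 and 638 CPM in Hox-WT. Hox-URE stood at 615, 758 and 1030 CPM and URE-AML at 174, 207 and 209 CPM. URE-AML lay below every library of both Hox lines, whereas Hox-WT library 3 overlapped Hox-URE library 1. Log2 fold changes were 0.76 ± 0.28 in Hox-URE versus Hox-WT (edgeR, adjusted p = 0.0401), -1.26 ± 0.28 in URE-AML versus Hox-WT (edgeR, adjusted p = 0.00294) and -2.02 ± 0.29 in URE-AML versus Hox-URE (edgeR, adjusted p = 0.000166). The first of these was the weakest call among the members. It was lost when any of 7 of the 9 libraries was left out (adjusted p = 0.0521 to 0.147), with a log2 fold change of 0.48 without Hox-WT library 1, 0.53 without Hox-URE library 3 and 0.76 to 0.81 in the other 5 cases. DESeq2 (0.77, adjusted p = 0.0106) and edgeR with the library number as a block (0.80, adjusted p = 0.00341) made the call.

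*H2-D1* (ENSMUSG00000073411, chr17:35262730-35267499, plus strand), the heavy chain of H2-D, stood at 188, 326 and 411 CPM in Hox-WT. In Hox-URE it stood at 709, 792 and 1051 CPM, and in URE-AML at 267, 250 and 303 CPM. Each Hox-URE library was above all others, and URE-AML fell within the Hox-WT range. Fitted log2 changes were 1.46 ± 0.25 in Hox-URE versus Hox-WT (edgeR, adjusted p = 0.0008), -0.17 ± 0.25 in URE-AML versus Hox-WT (edgeR, adjusted p = 0.581) and -1.64 ± 0.25 in URE-AML versus Hox-URE (edgeR, adjusted p = 0.000321).

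*B2m* (ENSMUSG00000060802, chr2:122147686-122153083, plus strand), the light chain that all class I heavy chains need, had the same calls as *H2-D1* in the 3 comparisons. Its levels were 105, 191 and 245 CPM in Hox-WT, 253, 555 and 790 CPM in Hox-URE and 155, 112 and 145 CPM in URE-AML. Hox-URE again lay above both other lines, but its library 1 was close to Hox-WT library 3. The log2 fold change was 1.56 ± 0.39 in Hox-URE versus Hox-WT (edgeR, adjusted p = 0.00711), -0.39 ± 0.39 in URE-AML versus Hox-WT (edgeR, adjusted p = 0.411) and -1.95 ± 0.40 in URE-AML versus Hox-URE (edgeR, adjusted p = 0.00181). Per kilobase of coding transcript, mean levels of *H2-K1*, *H2-D1* and *B2m* were 292, 147 and 210 CPM per kb in Hox-WT, 495, 405 and 619 in Hox-URE and 122, 130 and 160 in URE-AML. *B2m* was thus the highest of the 3 by mean level per length in Hox-URE and URE-AML, and *H2-K1* in Hox-WT.

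The class I genes varied more between libraries of a Hox line than most genes. The highest library exceeded the lowest 2.31-fold for *H2-K1*, 2.18-fold for *H2-D1* and 2.33-fold for *B2m* in Hox-WT, and 1.67-fold, 1.48-fold and 3.13-fold in Hox-URE. The median over all genes was 1.21-fold in Hox-WT and 1.31-fold in Hox-URE. In both Hox lines all 3 genes were lowest in library 1 and highest in library 3, and so was *Tapbp*, the tapasin gene of the peptide loading complex, which had a 2.5-fold and a 3.94-fold range. This order in both Hox lines was also that of 10 further pathway genes, among them *Ifi30*, *H2-Oa*, *H2-T23*, *Calr*, *Pdia3* and *H2-Q7*, so that 11 of 43 pathway genes (25.6%) and 986 of 11748 tested genes (8.39%) with counts in all libraries of both Hox lines had it. Whether something shared by same-numbered libraries moved them was not tested. Without library 1 of both Hox lines, a choice made after these values were seen, the log2 fold change of Hox-URE versus Hox-WT was 0.64 for *H2-K1*, 1.32 for *H2-D1* and 1.63 for *B2m*, all still called, and *B2m* was also called lower in URE-AML than Hox-WT, at -0.67 (edgeR, adjusted p = 0.0151).

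*H2-K1* and *H2-D1* share 22.8% and 26.7% of their 31-base words with other genes, mostly with each other and with the H2-Q genes, so reads that fit several heavy chains were split by the quantification. The alleles of these genes also differ between mouse strains, and how well each line's alleles match the reference was not tested. The sum of all K, D, Q and T heavy chain rows does not depend on how reads were split among those rows, although some also share words with rows outside the sum, such as *H2-T10* and *H2-T22* with *Gm11127*. It was 558, 953 and 1180 CPM in Hox-WT, 1940, 2310 and 2970 CPM in Hox-URE and 559, 597 and 638 CPM in URE-AML. The log2 fold change of the sum was 1.42 ± 0.25 in Hox-URE versus Hox-WT (edgeR, adjusted p = 0.000841), -0.59 ± 0.24 in URE-AML versus Hox-WT (edgeR, adjusted p = 0.063) and -2.01 ± 0.25 in URE-AML versus Hox-URE (edgeR, adjusted p = 7.58e-05). The call of *H2-K1* in URE-AML versus Hox-WT was thus not met by the sum.

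The balance of the heavy chains is given as a description. The ratio of *H2-K1* to *H2-D1* counts was 1.47, 1.55 and 1.55 in Hox-WT, 0.868, 0.958 and 0.98 in Hox-URE and 0.652, 0.828 and 0.691 in URE-AML, with no overlap between lines. On a log2 scale it was 0.61 ± 0.05 (SD, n = 3), -0.10 ± 0.09 and -0.47 ± 0.18. An exact permutation test of each pair of lines gave a two-sided p of 0.1, the smallest that 3 against 3 libraries allow and the value that any pair without overlap gives, so it adds nothing to the values themselves. Among the Hox-WT libraries the ratio stayed at 1.47 to 1.55 while the CPM of the genes differed 2.31-fold and 2.18-fold. Among the URE-AML libraries it ran from 0.652 to 0.828, and the CPM differed 1.2-fold and 1.21-fold. H2-Q rows made up 6.64%, 4.61% and 4.79% of heavy chain counts in Hox-WT, 18.4%, 15.5% and 14.6% in Hox-URE and 1.42%, 1.76% and 1.66% in URE-AML. H2-T rows made up 6.35% to 10.2%, 13.3% to 17.3% and 18.1% to 21.6%. URE-AML thus had the smallest H2-Q share and the largest H2-T share. The level of the H2-T rows was highest in Hox-URE, at 258, 400 and 451 CPM, beside 109, 129 and 115 CPM in URE-AML and 56.8, 77.4 and 74.9 CPM in Hox-WT.

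**Figure D3:**
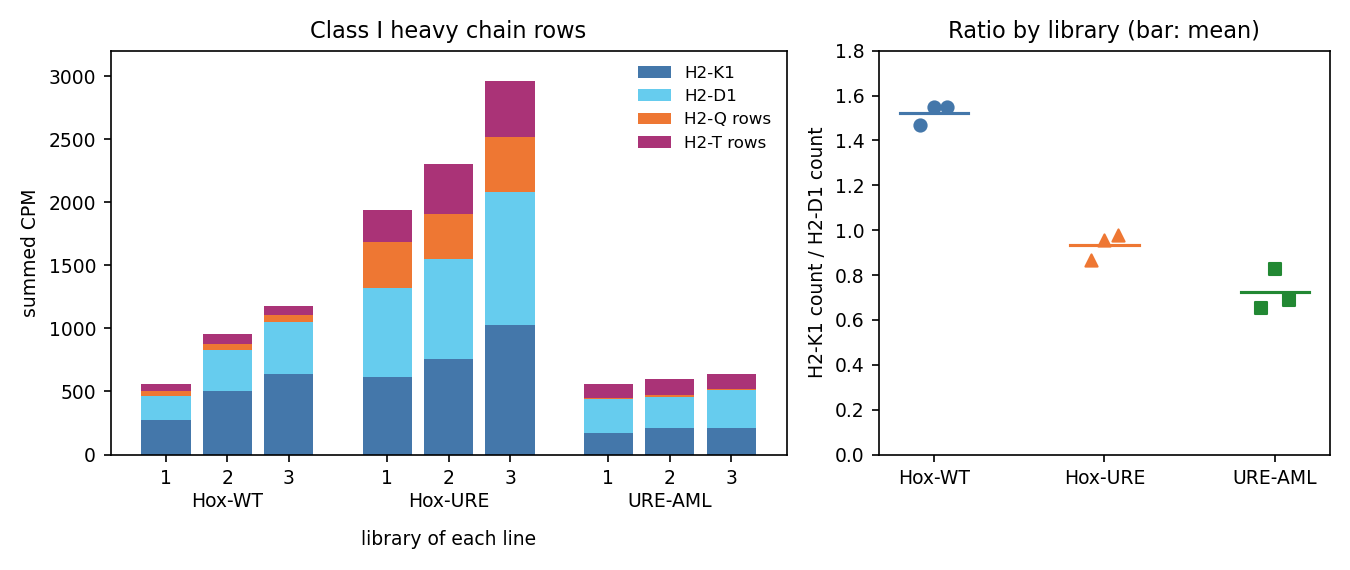
Left, summed level (CPM) of class I heavy chain rows in each library, stacked by *H2-K1*, *H2-D1*, H2-Q and H2-T rows. Right, the ratio of *H2-K1* to *H2-D1* counts by library with the mean as a bar: Hox-WT lies at 1.47 to 1.55, Hox-URE at 0.868 to 0.98 and URE-AML at 0.652 to 0.828.

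Other genes of antigen presentation were read from 7 lists with 58 genes, of which 47 were tested. In Hox-URE versus Hox-WT, 25 were called higher (53.2%) and 5 lower (10.6%), beside 21.3% and 15.9% of all tested genes, with a median log2 fold change of 0.67. In URE-AML versus Hox-WT, 14 were higher (29.8%) and 11 lower (23.4%), beside 23% and 20.2% of all tested genes (median 0.19). In URE-AML versus Hox-URE, 9 were higher (19.1%) and 17 lower (36.2%), beside 20.3% and 22.4% (median -0.18). The median over all tested genes was 0.0 in each, and the counts of single lists below stand beside the same shares of all tested genes. Of the 47, *Lgmn*, *H2-T24* and *Pdcd1lg2* held under 10 counts in each Hox-WT library, *Cd80* in each Hox-URE library and *H2-Oa* in each URE-AML library. These 5 passed the filter only through the other lines and had to differ, so the counts are descriptions. The class II pathway list, of proteases and other class II genes, had 4 tested genes of 10 listed. All 4 tested were higher in Hox-URE than Hox-WT, and 3 of them were lower in URE-AML than Hox-URE. The 6 others did not pass the filter, among them *H2-Ob* and *H2-DMb2*, whose counts in Hox-URE lay below those in Hox-WT. *Lgmn*, a lysosomal protease that cuts antigens and the invariant chain, went from 0, 3 and 4 counts in Hox-WT to 3319, 5776 and 5674 in Hox-URE and 38, 43 and 24 in URE-AML. *Ifi30*, the lysosomal thiol reductase, was higher in Hox-URE than Hox-WT by 1.99 ± 0.36 (log2 fold change, edgeR, adjusted p = 0.00103) and lower in URE-AML than Hox-URE, at -2.88 ± 0.38 (edgeR, adjusted p = 9.94e-05). *Ctsl*, a cathepsin, was higher in both UREd/d lines than Hox-WT, by 0.80 ± 0.22 and 0.77 ± 0.22 (edgeR, adjusted p = 0.0101 and 0.0113).

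*H2-Oa*, a chain of the DO molecule that holds DM in check, held 39, 87 and 94 counts in Hox-WT, 117, 129 and 148 in Hox-URE and 1, 1 and 0 in URE-AML, at or under the floor in URE-AML. Its partner *H2-Ob* held 8, 14 and 6 counts in Hox-WT and 0 in the other 6 libraries. Hox-URE thus had the alpha chain gene of DO without counts of the beta chain gene, as it had the beta chain gene of I-A with next to none of the alpha chain gene. *Ctss*, the protease that finishes invariant chain removal in many antigen-presenting cells, stayed at or under 3 counts in every library, and so did the class II ubiquitin ligase *Marchf1*. *H2-Eb2* reached 4 counts in 1 Hox-URE library and was at or under 1 in the other 8.

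The factors that bind class II promoters with CIITA formed another list. Of 7 tested genes, Hox-URE had 1 higher and 1 lower than Hox-WT, URE-AML had 1 higher and 2 lower than Hox-WT, and URE-AML had 1 higher and 1 lower than Hox-URE. *Rfxank* was higher in Hox-URE (0.68 ± 0.21) and URE-AML (1.06 ± 0.21) than Hox-WT (edgeR, adjusted p = 0.0208 and 0.00163). *Nfya*, a subunit of the factor that binds CCAAT, was lower in both, at -0.98 ± 0.10 and -0.96 ± 0.10 (edgeR, adjusted p = 2.37e-05 and 1.85e-05). *Rfx5*, the DNA-binding subunit of RFX, was lower in URE-AML than Hox-WT (-1.01 ± 0.20, edgeR, adjusted p = 0.0016) and than Hox-URE (-1.23 ± 0.20, edgeR, adjusted p = 0.000472). *Nfyc* was higher in URE-AML than Hox-URE by 0.89 ± 0.10 (edgeR, adjusted p = 3.28e-05).

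Nonclassical class I genes, which present lipids, metabolites or narrow sets of peptides, had 10 tested genes of 13 listed. In Hox-URE versus Hox-WT 9 were higher, with a median log2 fold change of 1.72 over the 10. In URE-AML versus Hox-WT 3 were higher and 4 lower (median 0.21), and in URE-AML versus Hox-URE 2 were higher and 7 lower (median -1.94). *H2-Q7*, whose promoter is printed above, stood at 13.4, 14.3 and 20.9 CPM in Hox-WT, 196, 209 and 252 CPM in Hox-URE and 1.21, 1.19 and 1.59 CPM in URE-AML. The lines did not overlap, and its log2 fold change was 3.75 ± 0.19 in Hox-URE (edgeR, adjusted p = 1.7e-07) and -3.60 ± 0.22 in URE-AML (edgeR, adjusted p = 3.98e-07) against Hox-WT. *H2-Q6* was higher in Hox-URE than Hox-WT by 5.97 ± 0.27 (edgeR, adjusted p = 1.04e-07). These 2 genes share 39.1% and 50.3% of their 31-base words with other genes, so the split between them is uncertain.

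*H2-T23*, which encodes the ligand of NKG2 receptors on natural killer cells, was higher in Hox-URE than Hox-WT by 3.14 ± 0.28 (edgeR, adjusted p = 9.67e-06) and not called in URE-AML versus Hox-WT (0.35 ± 0.27, edgeR, adjusted p = 0.28). *H2-T10*, annotated as a polymorphic pseudogene, went another way, with counts between 62 and 65 in Hox-WT, between 106 and 168 in Hox-URE and between 645 and 768 in URE-AML. It shares 50.7% of its 31-base words with other genes, chiefly *H2-T22*, which was higher in Hox-URE than Hox-WT by 1.65 ± 0.12 (edgeR, adjusted p = 3.04e-06) and at 0.31 ± 0.12 in URE-AML (edgeR, adjusted p = 0.053). *H2-T24* had 4, 0 and 0 counts in Hox-WT, 21, 59 and 61 in Hox-URE and 64, 60 and 84 in URE-AML. *H2-Q4*, *H2-M3* and *Mr1*, the last of which presents microbial metabolites, were higher in Hox-URE than Hox-WT by 1.47, 1.56 and 1.79 and lower in URE-AML than Hox-URE, at -3.08, -2.21 and -1.68 (log2 fold changes). *Cd1d1*, a presenter of lipids, was higher in URE-AML than Hox-WT by 0.98 ± 0.12 (edgeR, adjusted p = 5.06e-05) and than Hox-URE by 0.68 ± 0.12 (edgeR, adjusted p = 0.000599).

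The genes that make and load class I peptides were read next. Of 8 peptide loading genes, URE-AML had 2 higher and 1 lower versus Hox-WT, while versus Hox-URE it had 1 higher and 2 lower. In Hox-URE versus Hox-WT 3 were higher, among them *Tap2*, a chain of the peptide transporter, by 1.00 ± 0.08 (edgeR, adjusted p = 5.25e-06), and the chaperone *Calr* by 0.79 ± 0.20 (edgeR, adjusted p = 0.00842). *Pdia3*, at 0.67 ± 0.26 (edgeR, adjusted p = 0.0499), was at the edge of the threshold and its libraries overlapped. *Tap1*, the other transporter chain, was lower in URE-AML than Hox-WT (-0.88 ± 0.11, edgeR, adjusted p = 8.73e-05) and than Hox-URE (-1.43 ± 0.11, edgeR, adjusted p = 2.99e-06). *Erap1*, which trims peptides, was higher in URE-AML than both others by 0.74 ± 0.10 and 0.84 ± 0.10 (edgeR, adjusted p = 0.000111 and 5.17e-05). Of 5 immunoproteasome genes, *Psmb8* and *Psmb9* were lower in URE-AML than Hox-WT (-0.60 ± 0.09 and -1.02 ± 0.14, edgeR, adjusted p = 0.000344 and 0.000114) and than Hox-URE (-1.13 and -1.70). *Psmb9* was also higher in Hox-URE than Hox-WT, by 0.68 ± 0.13 (edgeR, adjusted p = 0.00183), with no overlap between their libraries. *Psmb10* was lower in Hox-URE than Hox-WT (-0.73 ± 0.10, edgeR, adjusted p = 0.000131) and higher in URE-AML than Hox-URE by 0.95 ± 0.10 (edgeR, adjusted p = 1.67e-05). The catalytic subunits therefore did not share 1 pattern over the lines.

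Among 9 genes of interferon gamma signalling and class I control, 4 were called higher and 2 lower in the first comparison (Hox-URE versus Hox-WT). URE-AML had 3 higher and 1 lower versus Hox-WT, and 3 higher and 2 lower versus Hox-URE. *Nlrc5*, the class I coactivator, stood at 26.7, 28.1 and 32.9 CPM in Hox-WT, 38.7, 48.4 and 36.3 CPM in Hox-URE and 5.65, 4.28 and 4.33 CPM in URE-AML. It was lower in URE-AML than Hox-WT (-2.62 ± 0.17, edgeR, adjusted p = 4.55e-07) and than Hox-URE (-3.11 ± 0.17, edgeR, adjusted p = 1.61e-07), whereas its 0.49 ± 0.15 in Hox-URE versus Hox-WT was under the fold threshold. *Ifngr1*, the ligand-binding chain of the interferon gamma receptor, was lower in Hox-URE than Hox-WT (-1.43 ± 0.12, edgeR, adjusted p = 4.66e-06) and higher in URE-AML by 3.07 ± 0.12 (edgeR, adjusted p = 1.5e-08). *Ifngr2* was lower in Hox-URE than Hox-WT (-1.80 ± 0.23, edgeR, adjusted p = 0.000116). *Jak1* and *Jak2*, the kinases that carry the signal, were higher in Hox-URE than Hox-WT by 0.65 and 0.94 (log2 fold changes). *Socs1*, which dampens it, was higher in both UREd/d lines than in wild type, by 2.66 ± 0.43 and 2.73 ± 0.43 (edgeR, adjusted p = 0.000512 and 0.000335). *Irf1* was higher in URE-AML than Hox-URE by 0.99 ± 0.15 (edgeR, adjusted p = 0.000267).

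The non-member genes of at least 10 CPM whose log2 level followed *H2-K1* most closely over the 9 libraries were *Rsu1* (Pearson r = 0.976), *Fto* (0.975) and *Irf9* (0.973), the first 3 of 8593 candidates. *Irf9*, which encodes an interferon regulatory factor, had mean levels of 9.09 CPM in Hox-WT, 16.4 CPM in Hox-URE and 5.63 CPM in URE-AML. The 9 points are 3 lines of 3 libraries, and differences between lines set most of such an r.

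Among 6 co-stimulation genes, 4 were tested, of which 3 were higher in Hox-URE than Hox-WT and 1 lower. *Cd86* had 0 counts in all 9 libraries, and *Cd40* reached 5 counts in 1 Hox-URE library. *Cd80*, the other ligand of CD28, had 19, 28 and 21 counts in Hox-WT, 0, 0 and 5 in Hox-URE and 6, 21 and 26 in URE-AML. The inhibitory ligand *Cd274* (PD-L1) was higher than Hox-WT by 2.28 ± 0.29 in Hox-URE and 2.73 ± 0.29 in URE-AML (edgeR, adjusted p = 0.00011 and 2.24e-05). *Pdcd1lg2* (PD-L2) had 0 counts in Hox-WT, 17, 13 and 18 in Hox-URE and 10, 2 and 6 in URE-AML. *Icosl*, the ligand of ICOS on T cells, was higher than Hox-WT by 3.62 ± 0.36 in Hox-URE and 3.20 ± 0.36 in URE-AML (edgeR, adjusted p = 2.2e-05 and 3.47e-05).

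**Figure D4:**
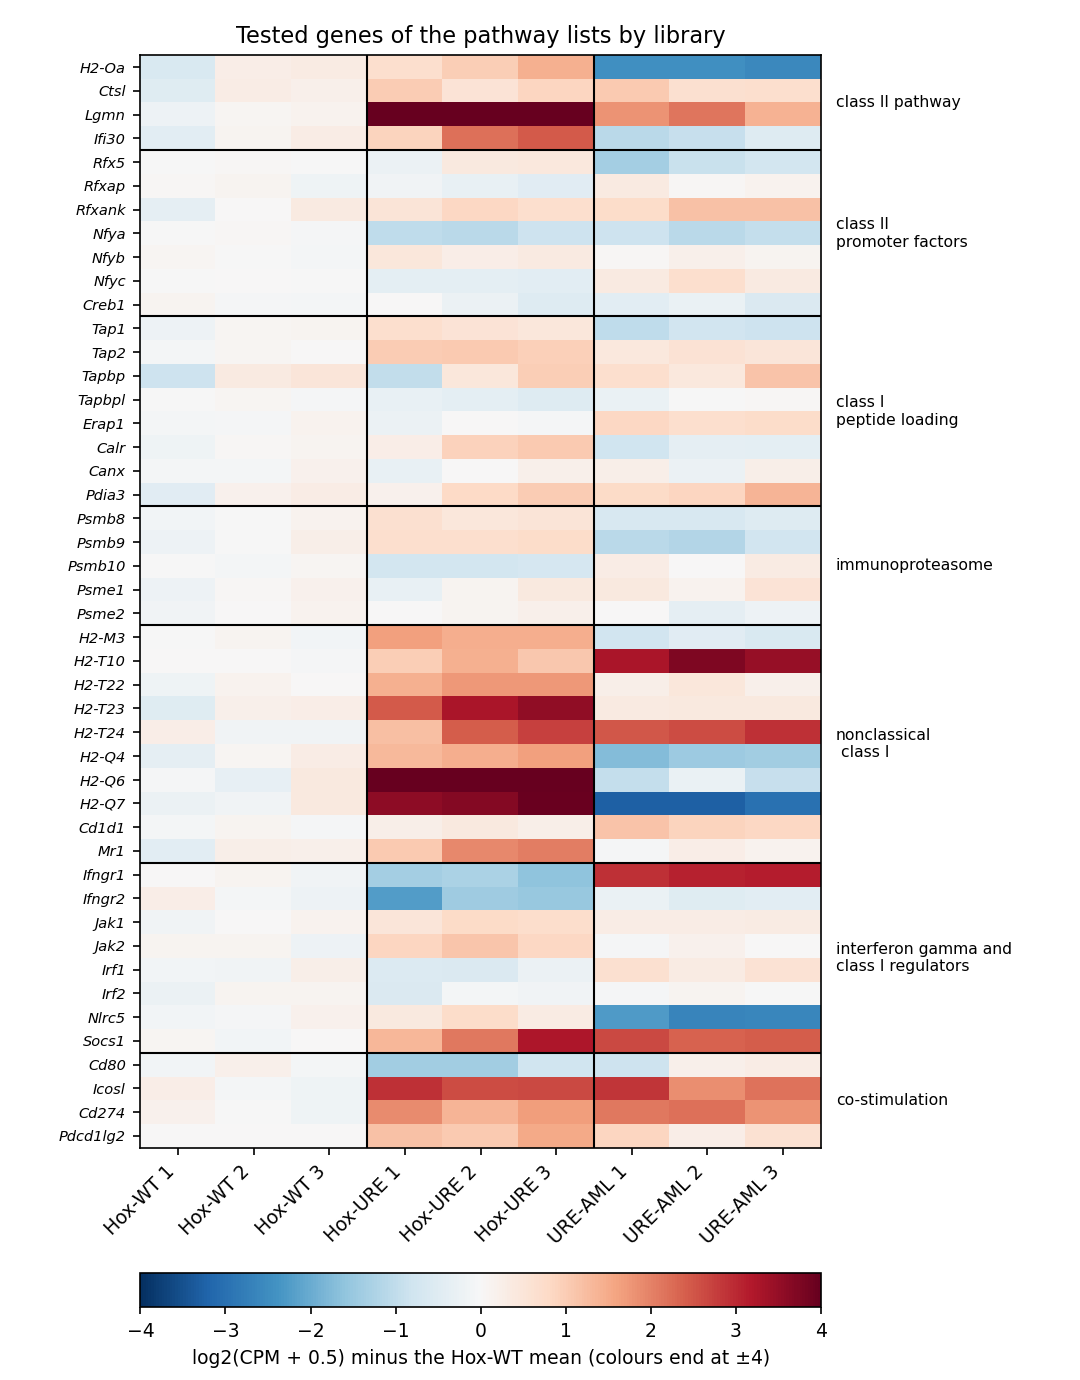
Level of tested pathway genes in each library as log2(CPM + 0.5) minus the Hox-WT mean, by list (rows) and library (columns), red for higher and blue for lower, with colours ending at ±4. *Lgmn*, *H2-Q6* and *H2-Q7* are deep red in all 3 Hox-URE libraries, and *H2-Oa*, *H2-Q7* and *Nlrc5* are blue in all 3 URE-AML libraries.

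Markers of other cells were read beside these values. The 5 B cell markers summed to between 1.42 and 3.77 CPM in Hox-WT, between 1.09 and 2.66 CPM in Hox-URE and at most 0.0858 CPM in URE-AML, with *Ms4a1* at 0 in every line and *Pax5* at 0 in Hox-URE. Within that sum *Cd79a* and *Cd79b* went opposite ways. *Cd79a* passed the filter only through Hox-URE and *Cd79b* only through Hox-WT, so both had to differ. *Cd79a* was higher in Hox-URE, the line with *H2-Ab1*, at 30, 62 and 51 counts against 3, 7 and 5 in Hox-WT (log2 fold change 3.50, edgeR, adjusted p = 0.000475), whereas *Cd79b* held 33, 83 and 100 counts in Hox-WT and 0, 0 and 1 in Hox-URE. The 6 macrophage and monocyte markers summed to between 292 and 300 CPM in Hox-WT, between 842 and 944 CPM in Hox-URE and between 14.2 and 22.5 CPM in URE-AML, and the Hox-URE sum was almost all *Ccr2*, with *Csf1r* at 0. Of the 5 tested, *Ccr2* was called higher in Hox-URE than Hox-WT, and *Adgre1*, *Csf1r*, *Ly86* and *Cd68* were called lower. *Adgre1* stood at 272, 270 and 280 CPM in Hox-WT, most of the sum there, and at 0.219, 1.41 and 2.66 CPM in Hox-URE. The 5 T cell markers reached at most 1.24 CPM, with *Cd3e*, *Cd3g* and *Cd8a* at 0 in all lines. The 6 myeloid progenitor markers summed to 6009 to 9414 CPM, 2819 to 4209 CPM and 7739 to 17451 CPM for Hox-WT, Hox-URE and for URE-AML, in that order. These sums join genes that went different ways. In Hox-URE 5 of the 6 were called lower than Hox-WT, beside 15.9% of all tested genes. Among them were *Mpo* (log2 fold change -9.93) and *Elane* (-4.28). The Hox-URE sum was mostly *Ctsg*, at 2483, 3633 and 3860 CPM, which was not called. In URE-AML *Elane*, *Prtn3* and *Ctsg* were called higher than Hox-WT and *Mpo*, *Kit* and *Myb* lower, and *Elane*, at 4290, 7128 and 10514 CPM, was the highest of the 6. The part of such cells in the levels above was not tested beyond these sums. In bulk RNA, fewer cells that express a gene and less RNA of it per cell cannot be told apart, so whether the *H2-Ab1* counts came from all Hox-URE cells or from some cannot be told here.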

How the data were processed

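Libraries were strand-specific and made from polyadenylated RNA, with 3 for each line. Per gene, the deposited values are estimated counts, which the authors obtained with salmon and gene-level summing and which are whole and carry no scaling for depth. GRCm38 is the build in the submitters' processing notes, while the transcriptome release and any length scaling of the counts are not given in the sources used here. All columns were used.

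Lines and library numbers came from the labels. Genes were filtered with filterByExpr (minimum count 10), which left 13082 of 54347 genes and put aside 0.0499% of counts. All 9 libraries were fitted in one quasi-likelihood model of edgeR 4.0.16 in R 4.3.3, with TMM scaling and line as the only factor. Tests were two-sided F tests with Benjamini-Hochberg adjustment over all tested genes, and SEs were taken from the fitted change and the root of its F statistic. CPM use TMM-scaled library sizes. Levels per kilobase divide by the longest coding transcript in GENCODE M21. Shared 31-base words were counted over that transcriptome, 31 bases being the default of salmon's index. Promoters came from RefSeq (GRCm38.p6), cut to 250 bases before the start and, for *B2m*, to 249 outside its exon. Likeness was Pearson's r of log2(CPM + 0.5).

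The members, the lists and the tests were chosen with earlier results of these data known. Named genes were the 10 members, pathway genes that were called or that stayed at or under 3 counts in every library of a line, the 3 closest genes to *Cd74* and to *H2-K1*, and *Spi1*. Marker genes and *Tapbp* are named outside that rule, *Tapbp* after its values were seen. No library was a copy of another, since chi-square per degree of freedom between libraries of a line was 18.1 to 99.8.

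The code was tested on simulated counts for 13082 genes in Hox-URE against Hox-WT. edgeR recovered 68 of 100 genes changed 2-fold and 88 of 100 changed 4-fold, with 7 unchanged genes called. DESeq2 1.42.0 recovered 73 and 88, with 25 unchanged genes called. An initial pass mark for this test, over 70% recovered at each fold, was missed at 2-fold and was then replaced by checks of bias, direction and false calls, with the fit left as it was. Alternatives were other scalings, filters and fold thresholds, only the libraries compared, the library number as a block, DESeq2, heavy chain rows summed, and each library left out in turn. Leaving out library 1 of both Hox lines was chosen after seeing the data. Some listed genes are not reported here by name. Figures were drawn with matplotlib 3.10.9.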

Additional observations from a re-analysis of the deposited data

How the results depend on the processing

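Of 415 alternative values of single members, 402 kept their direction and side of the threshold, 11 lost a call, 1 gained one and 1 turned. *H2-K1* in Hox-URE versus Hox-WT accounts for 10 of the losses, with library size only (log2 fold change 0.65, adjusted p = 0.0596), only the 6 libraries compared (0.75, 0.0725), a test against a fold change of 1.5 (0.76, 0.319) and 7 of the 9 libraries left out in turn. The other loss is *H2-K1* in URE-AML versus Hox-WT with heavy chain rows summed (-0.59, 0.063). *H2-D1* in URE-AML versus Hox-WT, not called either way, ran from -0.43 to 0.08 with 1 library left out, the latter without Hox-WT library 3. *H2-Ab1* has no value there without Hox-WT library 2, since both lines are then at 0.

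With at least 10 counts in every library, 4 members were left to test, and the members called lower were 0 in Hox-URE and 1 in URE-AML, and those called higher in URE-AML 0, each against Hox-WT. Without a filter on low counts, *Cd74* was called lower in URE-AML than both other lines, which makes 3 and 7 members called lower there. Without a fold threshold, 8 pathway genes had lower levels in Hox-URE. With each library left out in turn, higher and lower member counts were 5 to 6 and 1 to 1 in Hox-URE versus Hox-WT, 1 to 1 and 2 to 2 in URE-AML versus Hox-WT, and 0 to 0 and 6 to 6 in URE-AML versus Hox-URE. Pathway genes called higher and lower were 20 to 27 and 5 to 7, 12 to 15 and 9 to 13, and 8 to 10 and 17 to 19.

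Same-numbered libraries of Hox-URE and Hox-WT deviated together with r of 0.271, 0.099 and 0.174, and those of the other pairs of lines with r of 0.01 to 0.092. In every pair of lines, the r of each library was highest, or tied for highest, with its own number. The main fit did not use the numbers. Whether they mark a shared batch was not tested beyond these r and the fit with the number as a block. With the number as a replicate block, the members counted 6 higher and 1 lower in Hox-URE versus Hox-WT, and no call of a member changed. At 3 counts per library, the depth does not show *H2-Aa*, *H2-Eb1* or *Cd74* to be absent, and with 1 line per genotype, line and genotype cannot be told apart.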
